A study of Mus musculus with 8 samples.

Results

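Messages of 9 lysosomal cathepsins (Ctsa, Ctsb, Ctsc, Ctsd, Ctsh, Ctsk, Ctsl, Ctss and Ctsz) and of the cathepsin inhibitor cystatin C (Cst3) were examined in RNA-seq of the mouse aorta. They were taken by gene symbol from the deposited table, 1 row per gene, which gave 10 of its 48607 loci. All 10 had at least 1 FPKM (fragments counted per kilobase of transcript and scaled to library size) in at least 3 libraries and were among the 20506 loci tested.

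Entire aortas came from ApoE-/- mice, which lack apolipoprotein E and develop atherosclerosis, and from NPRC-/-ApoE-/- mice, which also carry a frameshift that CRISPR made in exon 1 of Npr3, the gene of natriuretic peptide receptor C. The mutation was in every cell of the animal, the line was made on a C57BL/6 background, and both groups were fed a Western diet for 12 weeks. Poly(A) RNA was sequenced, and the titles gave 5 libraries of ApoE-/- (1 to 5) and 3 of NPRC-/-ApoE-/- (1 to 3). In the labels, title and genotype field matched for 4 libraries (ApoE-/- 1, 2 and 3 and NPRC-/-ApoE-/- 3). ApoE-/- 4 and 5 were entered as NPRC-/-ApoE-/- in the field, and NPRC-/-ApoE-/- 1 and 2 were entered there as ApoE-/-. Both labels therefore gave 5 ApoE-/- and 3 NPRC-/-ApoE-/- libraries, with different members, and every comparison was made under both. Libraries are called by their titles. Npr3 itself did not settle the labels, since its FPKM was 0.62 to 1.69 in the libraries titled ApoE-/- and 1.13 to 1.39 in those titled NPRC-/-ApoE-/-, and a frameshift need not remove the message. Total counts were 62969165 to 86693276 per library, and the 10 genes took 0.288 to 1.16% of them.

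Cathepsins are made as inactive precursors, carried to the lysosome and cut there to the active enzyme, where they digest proteins taken up from outside the cell or delivered by autophagy. Most are papain-like cysteine proteases, whereas cathepsin D is an aspartic protease and cathepsin A a serine carboxypeptidase. Macrophages are rich in these enzymes, and in the atherosclerotic wall macrophages and smooth muscle cells can also release cathepsins that cut elastin and collagen. Cystatin C is a secreted protein that many cell types make and that binds and blocks papain-like cathepsins outside the cell.

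All coordinates refer to GRCm38 with GENCODE M21. Ctsa lies on chromosome 2 from 164832873 to 164841032 (plus strand), Ctsz on chromosome 2 from 174427493 to 174439039 and Cst3 on chromosome 2 from 148871722 to 148875692 (both minus strand). Ctsk, from 95499256 to 95509362, and Ctss, from 95526786 to 95556403, are neighbours on the plus strand of chromosome 3. Ctsc is on chromosome 7 from 88278085 to 88310888 (plus strand), and Ctsd is on chromosome 7 from 142375911 to 142388038 (minus strand). Ctsh is on chromosome 9 from 90054152 to 90076089 and Ctsb on chromosome 14 from 63122462 to 63145923 (both plus strand), and Ctsl is on chromosome 13 from 64359337 to 64370890 (minus strand). The counts cover whole loci, transcripts and exons together. In the assembly of the authors, 3 of the 10 rows were shared with other genes, so their counts cannot be separated: Ctsk with its upstream neighbour Arnt and with Gm42672, Ctsd with Ifitm10, and Ctsl with Gm49230.

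Promoter windows from RefSeq (GRCm38.p6, 250 bases before to 50 after a start) were matched by symbol for 8 of the 10 genes, in 9 windows, and Ctsb and Ctsh were not matched. They are shown because the messages moved together across libraries. Both strands were searched for the E-box core CACGTG, for TCACGTGA, which contains it and is the core of the CLEAR element bound by TFEB and TFE3, regulators of lysosomal genes, and for GAGGAAGT, a site form of the myeloid factor PU.1. CACGTG was in the windows of 3 of the 8 genes (8.09% of all 27025 gene symbols with a window). TCACGTGA was in those of 2 genes (1.12% of symbols) and GAGGAAGT in those of 2 genes (3.69% of symbols). Ctsk, Ctsz and Cst3 had none of the 3 in their windows, which says nothing about other sequences or about binding. The stretches with a match follow in the direction of transcription, with the matched letters in capitals.
Ctsa (chr2:164833736-164833797, plus strand, second start): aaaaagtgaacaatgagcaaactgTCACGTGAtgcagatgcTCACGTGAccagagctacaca
Ctsd (chr7:142387895-142387950, minus strand): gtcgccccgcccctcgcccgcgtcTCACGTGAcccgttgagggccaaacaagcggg
Ctsd (chr7:142388043-142388077, minus strand): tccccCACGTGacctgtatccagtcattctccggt
Ctsl (chr13:64370727-64370770, minus strand): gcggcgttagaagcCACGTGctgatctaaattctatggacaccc
Ctsc (chr7:88277910-88277965, plus strand): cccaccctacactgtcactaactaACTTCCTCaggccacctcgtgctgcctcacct
Ctss (chr3:95526760-95526810, plus strand): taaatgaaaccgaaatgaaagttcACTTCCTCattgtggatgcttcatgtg
In Ctsa both copies lie within 13 bases of the second start, and in Ctss the PU.1 form, read on the opposite strand, spans the start. In Ctsd the longer form begins 99 bases before the start.

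Per length, Ctsb, a broad lysosomal endo- and exopeptidase, had the highest deposited FPKM (median 328.0 over the 8 libraries, range 145.7 to 696.5), followed by Ctss (282.0), Ctsd (182.6), Cst3 (168.5), Ctsz (91.8), Ctsl (60.6), Ctsh (19.0), Ctsa (15.8), Ctsc (11.0) and Ctsk (6.75). Of the 9 neighbouring pairs in this order, 8 differed in paired two-sided exact permutation tests over the 8 libraries (adjusted p = 0.014 to 0.026), and the pair of Ctsd and Cst3 did not pass (mean log2 difference 0.07, adjusted p = 0.69). The order depended on the length behind the FPKM. Counts and FPKM together imply that length up to a common factor. The factor was set so that implied and annotated lengths matched at the median of 1718 tested loci. These had 1 annotated transcript and at least 100 counts in every library. On this scale the length equalled the principal annotated transcript for Ctss (1.00 times). It was 4.26 times as long for Ctsc and 10.9 times as long for Ctsk, whose row also holds Arnt. Ctsz also had 1.00 times, but it meets the rule for the loci that set the factor, so its value is no check. CPM, the count scaled to a common library size, was also taken per kilobase of the principal transcript, a scale chosen after the data were seen. There Ctsd was first (median 729.2) before Ctsb (498.0), Ctss (336.5), Cst3 (309.7) and Ctsl (238.3), and Ctsa was last (47.1). The values of Ctsd and Ctsl include any reads of Ifitm10 and Gm49230, which share their rows, so the first place may not be that of Ctsd alone. On that scale 5 of the 9 neighbouring pairs differed, the difference between Cst3 and Ctsl did not pass (mean log2 difference 0.31, adjusted p = 0.30, Cst3 higher in 5 of 8 libraries), and Ctsk stood seventh in place of last, with Arnt reads included.

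**Figure D1:**
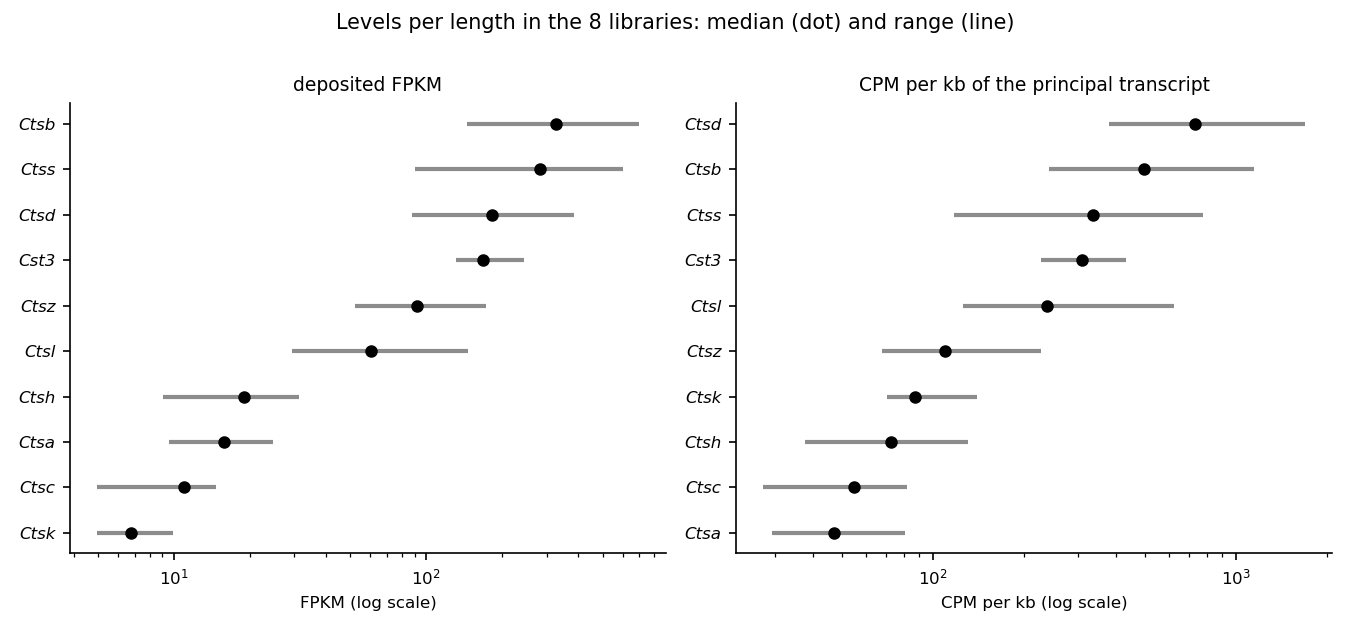
Level per length of the 10 genes in the 8 libraries, as deposited FPKM (left) and as CPM per kilobase of the principal transcript (right), both on log axes. Dots are medians and lines run from the lowest to the highest library. Ctsb leads on the left (median 328.0) and Ctsd, on a row shared with Ifitm10, on the right (median 729.2).

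Within the aorta libraries the cathepsins moved as a block. ApoE-/- 3 and 4 held the 2 highest values of 9 of the 10 genes, with Cst3 as the exception, and NPRC-/-ApoE-/- 2 and 3 held the 2 lowest values of the same 9. ApoE-/- 5 and NPRC-/-ApoE-/- 1 lay in between, the first below the second for all cathepsins but Ctsc. Across the 36 pairs of cathepsins the median correlation of log2 CPM over the 8 libraries was 0.96 (range 0.77 to 0.995), and the closest pair was Ctsd and Ctsz. Pairs of a cathepsin with Cst3 had correlations of 0.46 to 0.78. These correlations describe 8 libraries that share their depth and tissue composition within each library, and no test was made of them. ApoE-/- 3 is titled and entered as ApoE-/-, while ApoE-/- 4 is entered as NPRC-/-ApoE-/-, so the 2 highest libraries fall into different groups by genotype field.

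The endopeptidases that digest protein in the lysosome were examined first. Ctsb had 2248, 3018, 4968, 5433 and 1706 CPM in ApoE-/- 1 to 5, and 2476, 1234 and 1143 CPM in NPRC-/-ApoE-/- 1 to 3. Ctsd, the aspartic protease, had 1519, 1661, 3590, 3385 and 1179 CPM in ApoE-/- 1 to 5, and 1583, 928 and 810 CPM in NPRC-/-ApoE-/- 1 to 3. For both genes the 2 high ApoE-/- libraries were more than 2 times ApoE-/- 5, and NPRC-/-ApoE-/- 1 lay inside the ApoE-/- range, so that the titled groups overlapped. By title the log2 fold change was -1.10 for Ctsb (SE 0.46, unadjusted p = 0.039, adjusted p = 0.34) and -1.03 for Ctsd (SE 0.44, unadjusted p = 0.042, adjusted p = 0.35), by the quasi-likelihood test of edgeR, adjusted after Benjamini and Hochberg. By genotype field it was -0.01 (95% interval -1.32 to 1.29) and -0.05 (-1.29 to 1.19), with adjusted p = 1.00 for both in the same test.

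Ctsl, Ctss and Ctsk encode the cathepsins with known elastin-cutting activity. Ctsl had 558, 544, 1191, 1226 and 329 CPM in ApoE-/- 1 to 5, and 396, 271 and 247 CPM in NPRC-/-ApoE-/- 1 to 3. Ctss, which also trims the invariant chain in antigen-presenting cells, had 423, 568, 875, 1050 and 277 CPM in ApoE-/- 1 to 5, and 489, 158 and 159 CPM in NPRC-/-ApoE-/- 1 to 3. Ctss had the widest span of the 10 genes, 6.63 times from the lowest to the highest library, and Ctsl followed with 4.95 times. The spread of Ctsl among the libraries titled ApoE-/- alone (SD 0.81 on the log2 scale) was larger than that of 93.2% of all tested loci. By title, Ctsl had the lowest log2 fold change of the 10 (-1.34, SE 0.45, unadjusted p = 0.016, adjusted p = 0.30, quasi-likelihood test of edgeR), and Ctss had -1.25 (SE 0.54, unadjusted p = 0.045, adjusted p = 0.36). Only the lowest ApoE-/- library, number 5, lay below the highest NPRC-/-ApoE-/- library for Ctsl. By genotype field the values were 0.02 for Ctsl and -0.02 for Ctss, with intervals from -1.36 to 1.40 and from -1.51 to 1.47. Ctsk, the collagenase of osteoclasts, had a narrower span of 113 to 211 CPM in the libraries titled ApoE-/- and 106 to 137 CPM in the others (log2 fold change -0.39, SE 0.22, unadjusted p = 0.11, adjusted p = 0.46), on a row that also counts Arnt.

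Ctsc encodes the dipeptidyl peptidase that activates granule proteases of neutrophils, mast cells and cytotoxic lymphocytes. It had 151, 141, 204, 163 and 132 CPM in ApoE-/- 1 to 5, and 110, 77.0 and 68.4 CPM in NPRC-/-ApoE-/- 1 to 3. This was the only gene of the 10 whose titled groups did not overlap, against 7.41% of all tested loci. Its log2 fold change by title was -0.89 (SE 0.20, 95% interval -1.35 to -0.43, unadjusted p = 0.0017, adjusted p = 0.23, quasi-likelihood test of edgeR), with the smallest p of the 10. DESeq2 gave it an adjusted p = 0.0056 and limma voom with sample quality weights an adjusted p = 0.0496, with 650 and 130 loci called in all. By genotype field the groups overlapped and the value was -0.17 (95% interval -0.97 to 0.63).

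The other exopeptidases and the serine carboxypeptidase had log2 fold changes of -0.83 to -0.63 by title. Ctsz, a carboxypeptidase, was at 129 to 326 CPM in the libraries titled ApoE-/- and 97.5 to 154 CPM in the others (log2 fold change -0.83, SE 0.34, unadjusted p = 0.037, adjusted p = 0.34, quasi-likelihood test of edgeR). Ctsh, mainly an aminopeptidase, was at 88.6 to 210 and 61.1 to 133 CPM (-0.76, SE 0.36, unadjusted p = 0.066, adjusted p = 0.39). Ctsa, which also protects beta-galactosidase and neuraminidase in the lysosome, was at 128 to 294 and 107 to 188 CPM (-0.63, SE 0.32, unadjusted p = 0.085, adjusted p = 0.42). For all 3 the highest NPRC-/-ApoE-/- library was number 1, and it exceeded ApoE-/- 5. By genotype field the values were -0.06 for Ctsz, -0.18 for Ctsh and -0.07 for Ctsa.

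Cst3, the inhibitor, had the narrowest span of the 10 genes over the libraries. It had 195, 368, 372, 345 and 205 CPM in ApoE-/- 1 to 5, and 273, 211 and 260 CPM in NPRC-/-ApoE-/- 1 to 3. The lowest value was that of ApoE-/- 1 and all 3 NPRC-/-ApoE-/- libraries lay within the ApoE-/- range. The highest value was 1.91 times the lowest (1.99 times for Ctsk, the next, on a row that also counts Arnt). The log2 fold change of Cst3 by title was -0.26 (SE 0.26, 95% interval -0.84 to 0.32, adjusted p = 0.67, quasi-likelihood test of edgeR). By genotype field it was -0.07 (95% interval -0.70 to 0.55).

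**Figure D2:**
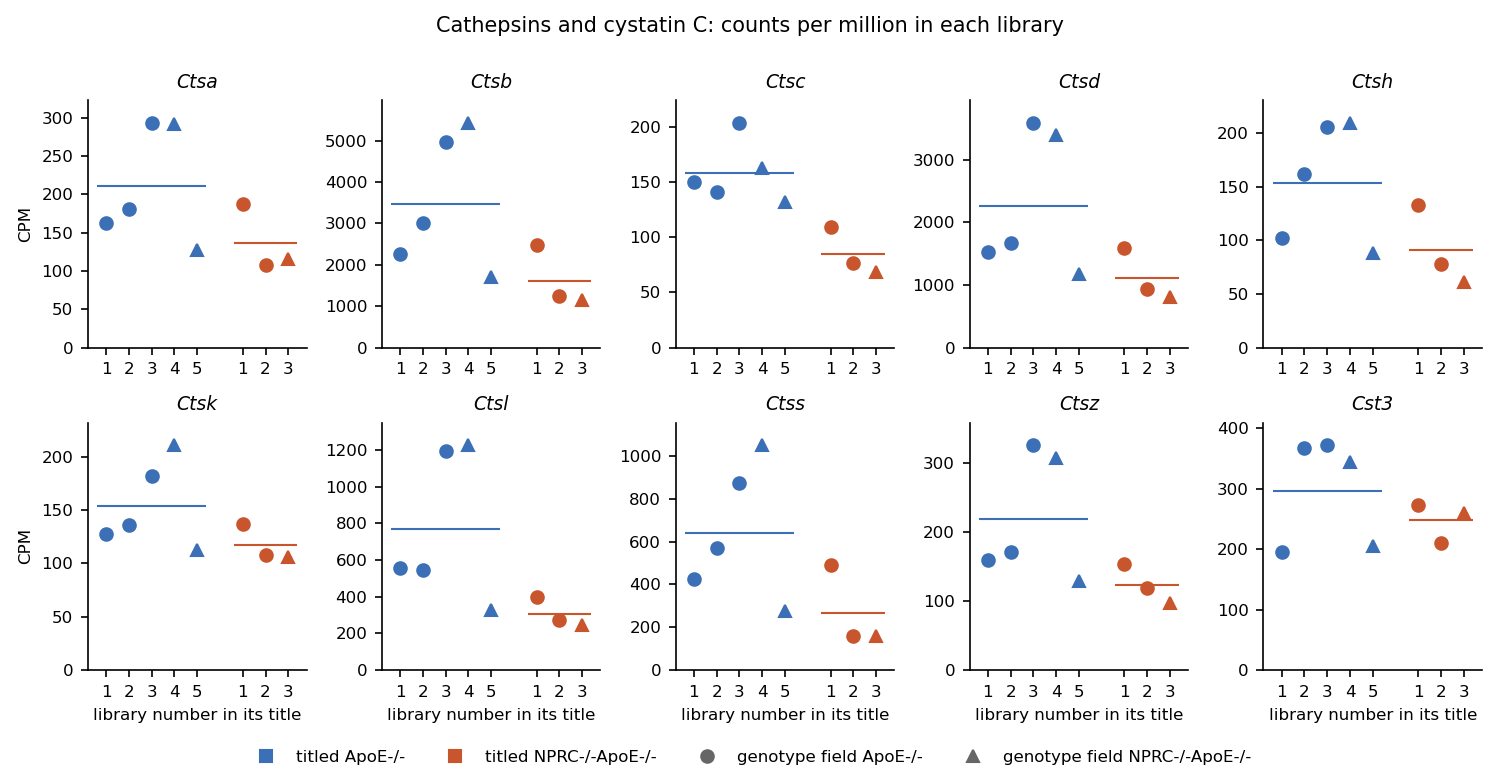
CPM of each gene (y axis from 0, scaled per panel) in each library, by library number in its title. Colours give the title, symbols give the genotype field and horizontal lines are the means of the titled groups, and ApoE-/- 3 and 4 stand highest in the cathepsin panels while only Ctsc has titled groups that do not overlap.

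Counted together by title, 10 of the 10 genes were lower in NPRC-/-ApoE-/-, where 50.9% of all tested loci were. Of the 10, 6 had an unadjusted p under 0.05 (Ctsb, Ctsc, Ctsd, Ctsl, Ctss and Ctsz), compared with 13.6% of tested loci in either direction and 7.13% in the lower direction. The criterion that the study used, a fold change over 2 or under 0.5 with an unadjusted p under 0.05, was met by 4 (Ctsb, Ctsd, Ctsl and Ctss) and by 3.47% of tested loci. None of the 10 had an adjusted p under 0.05 (smallest 0.23), as was the case for 0% of tested loci. The median log2 fold change was -0.86 for the 10 genes and -0.01 for all tested loci. These genes were listed with earlier results of the same libraries known, and because they run together across libraries they are not 10 separate observations.

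Under the genotype field, 8 of the 10 genes were lower (51% of tested loci), and none had an unadjusted p under 0.05 (1.31% of tested loci) or an adjusted p under 0.05 (0% of tested loci). The median log2 fold change was -0.06, and all 10 intervals included 0. That median rested on single libraries, being -0.76 with 10 of 10 lower without ApoE-/- 4, and 0.23 with 1 of 10 lower without NPRC-/-ApoE-/- 3. The 4 libraries with the same genotype in both labels, 3 against 1, gave 10 lower genes and a median of -1.32, with the spread of the lone NPRC-/-ApoE-/- library taken from the others. The titled counts depended on single libraries. Leaving out 1 library at a time left the median between -1.13 and -0.70, but the number with an unadjusted p under 0.05 ran from 1 (without NPRC-/-ApoE-/- 2 or 3) to 9 (without ApoE-/- 5), and was 2 without ApoE-/- 3 or without ApoE-/- 4. The number past the criterion of the study ran from 0 (without NPRC-/-ApoE-/- 2 or 3) to 7 (without NPRC-/-ApoE-/- 1). Calls over all 20506 loci moved as well, from 1332 with an unadjusted p under 0.05 without NPRC-/-ApoE-/- 2 to 4431 without NPRC-/-ApoE-/- 1. They were 1373 without NPRC-/-ApoE-/- 3, 3844 without ApoE-/- 5, 2109 without ApoE-/- 3 and 2097 without ApoE-/- 4.

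**Figure D3:**
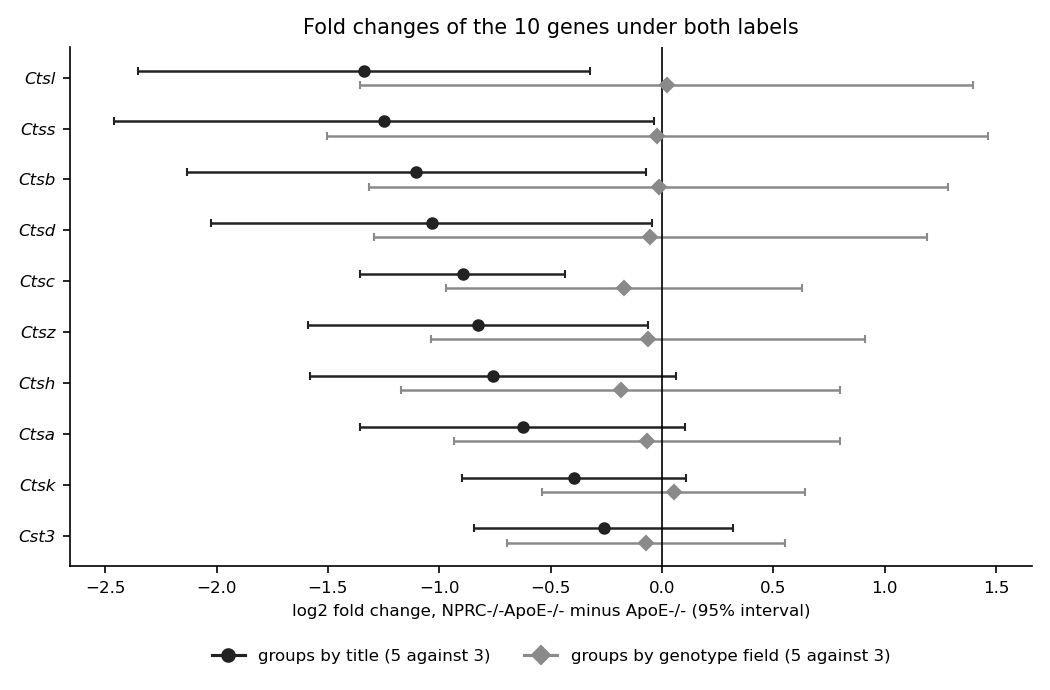
Log2 fold change of each gene (NPRC-/-ApoE-/- minus ApoE-/-) with its 95% interval from the edgeR fit, grouped by title (black) and by genotype field (grey), 5 libraries against 3 in both. Titled estimates run from -1.34 for Ctsl to -0.26 for Cst3, and the estimates by genotype field from -0.18 to 0.05.

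The log2 ratio of each cathepsin to Cst3 within a library was taken from FPKM, and it does not depend on library scaling. Cystatin C blocks papain-like cathepsins, which Ctsd and Ctsa do not encode. Their ratios (differences by title -0.74 and -0.38) are counted among the 9 but do not set a protease against its inhibitor. By title all 9 ratios were lower in NPRC-/-ApoE-/- (median difference -0.70). The ratio of Ctsl to Cst3 was -0.84, -1.79, -0.68, -0.53 and -1.68 in ApoE-/- 1 to 5, and -1.82, -1.99 and -2.43 in NPRC-/-ApoE-/- 1 to 3. It was the only ratio without overlap, by a gap between ApoE-/- 2 and NPRC-/-ApoE-/- 1 of under 0.1. Its mean was -1.10 ± 0.59 (SD) and -2.08 ± 0.31 in the titled groups (exact permutation of 5 and 3 libraries, two-sided p = 0.036, the smallest it can give, adjusted p = 0.16 over 9 ratios). The largest difference was that of Ctss, at 0.90 ± 0.47 and -0.19 ± 0.82 (exact permutation p = 0.11). The smallest was that of Ctsk (-0.15, exact permutation p = 0.54), whose row also counts Arnt. On the deposited FPKM scale, Ctss and Ctsb were above Cst3 in all 5 libraries titled ApoE-/- and in NPRC-/-ApoE-/- 1 (0.74 and 0.93), and both were below it in NPRC-/-ApoE-/- 3 (-0.81 and -0.12). In NPRC-/-ApoE-/- 2 Ctsb was above Cst3 (0.29) and Ctss below it (-0.51). Per kilobase of the principal transcript, Ctss was below Cst3 also in ApoE-/- 2 (419 and 428 CPM per kilobase) and ApoE-/- 5 (205 and 239). By genotype field 8 of the 9 ratios were lower, with a median difference of -0.13 and exact permutation p = 0.54 to 0.82.

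**Figure D4:**
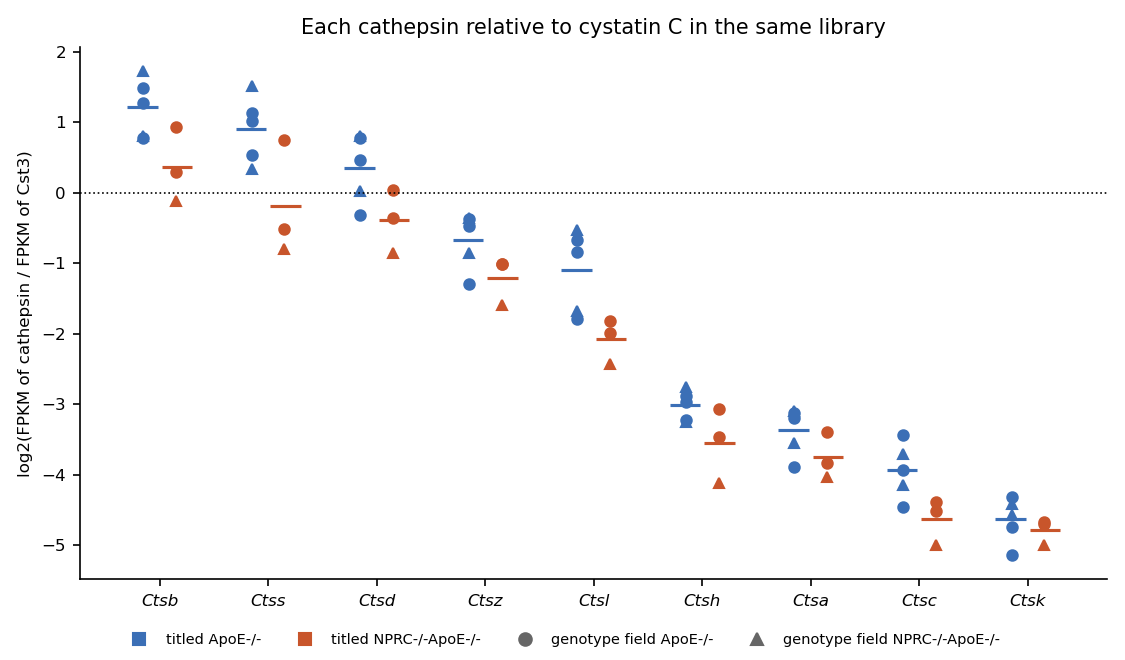
Log2 ratio of the FPKM of each cathepsin to that of Cst3 in each library (y axis), with short lines at the means of the titled groups and symbols for the genotype field. The dotted line marks equal FPKM, and Ctsl is the one ratio whose titled groups do not overlap, although the length behind the FPKM fixes the height of each column.

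Because whole aortas were used, fewer cells of a type and less RNA per cell cannot be told apart. The 12 macrophage markers checked (Cd68, Adgre1, Csf1r, Lyz2, Itgam, Mrc1, C1qa, C1qb, C1qc, Fcgr1, Mertk and Cd14) were all detected, although the Cd68 row also holds Senp3, Eif4a1, Tnfsf12 and Tnfsf13 and so does not stand for Cd68 alone. By title 12 of 12 were lower, 6 of them with an unadjusted p under 0.05, where 50.9% of all tested loci were lower and 7.13% were lower with such a p. Their mean log2 CPM was 6.43 to 7.79 in the libraries titled ApoE-/- and 5.74 to 6.91 in the others, and 6.93 and 6.63 on average by genotype field. C1qc had the lowest log2 fold change of the markers (-1.47, SE 0.57, adjusted p = 0.33, quasi-likelihood test of edgeR), followed by Fcgr1 (-1.46) and C1qb (-1.45), whereas Mertk had -0.02. Smooth muscle markers stood the other way, with 10 of 10 higher by title and 9 with an unadjusted p under 0.05 (13.6% of tested loci in either direction), at a mean log2 CPM of 8.26 to 8.70 and 8.69 to 9.45. Among them Smtn had a log2 fold change of 0.99 (SE 0.24, adjusted p = 0.26, same test). None of the markers had an adjusted p under 0.05, and neither list had a member with an unadjusted p under 0.05 by genotype field.

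Each cathepsin followed the macrophage marker level of its library. Pearson's r over the 8 libraries was 0.99 for Ctsb, Ctss and Ctsh, 0.97 for Ctsd and Ctsa, 0.96 for Ctsz, 0.95 for Ctsl, 0.93 for Ctsk and 0.91 for Ctsc (exact permutation, adjusted p = 5.0e-04 to 0.0029 over the 10 genes). Spearman's rho was 0.88 to 1 for these 9, with adjusted p = 5.0e-04 to 0.0080 in exact permutation tests. Cst3 had r = 0.73 and rho = 0.74 (exact permutation, adjusted p = 0.049 and 0.046). Without ApoE-/- 3 and NPRC-/-ApoE-/- 3, whose marker level was farthest from the median, r was 0.80 to 0.99 for the 10 genes. The slope differed between genes, from 1.34 log2 units of Ctss per log2 unit of marker level, over 1.11 for Ctsl and 1.09 for Ctsb. It went down to 0.44 for Ctsk, whose row also counts Arnt, and 0.37 for Cst3. The share of all tested loci with such an r was not taken, so these correlations have no background here and are not shown to be particular to cathepsins. No labelled batch was known within which the relation could be repeated.

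Relative to the macrophage marker mean of the same library, a comparison added after the data were seen, 3 of the 10 genes were lower by title (Ctss, Ctsl and Ctsb) and 7 were higher. The median difference was 0.17 by title and 0.12 by genotype field. Ctss had the lowest difference (-0.31, exact permutation p = 0.18) and Cst3 the highest (0.79, exact permutation p = 0.11). Ctsa and Ctsh had titled groups that did not overlap on this scale, both higher in NPRC-/-ApoE-/- (0.40 and 0.25, exact permutation p = 0.036 each, adjusted p = 0.18 over the 10 genes). The marker level was itself lower by title, and slopes on it were 1.34 for Ctss, 1.11 for Ctsl and 1.09 for Ctsb. The other 7 genes had slopes from 0.37 (Cst3) to 1.00 (Ctsd), with 0.71 for Ctsa and 0.85 for Ctsh. On this scale a slope over 1 by itself places a gene lower by title and a slope under 1 places it higher. The split of 3 and 7 is therefore not separate from the slopes. No share of all tested loci, higher, lower or without overlap, was taken on this scale, so these counts have no background. Whether the marker level accounts for the titled differences was not tested.

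**Figure D5:**
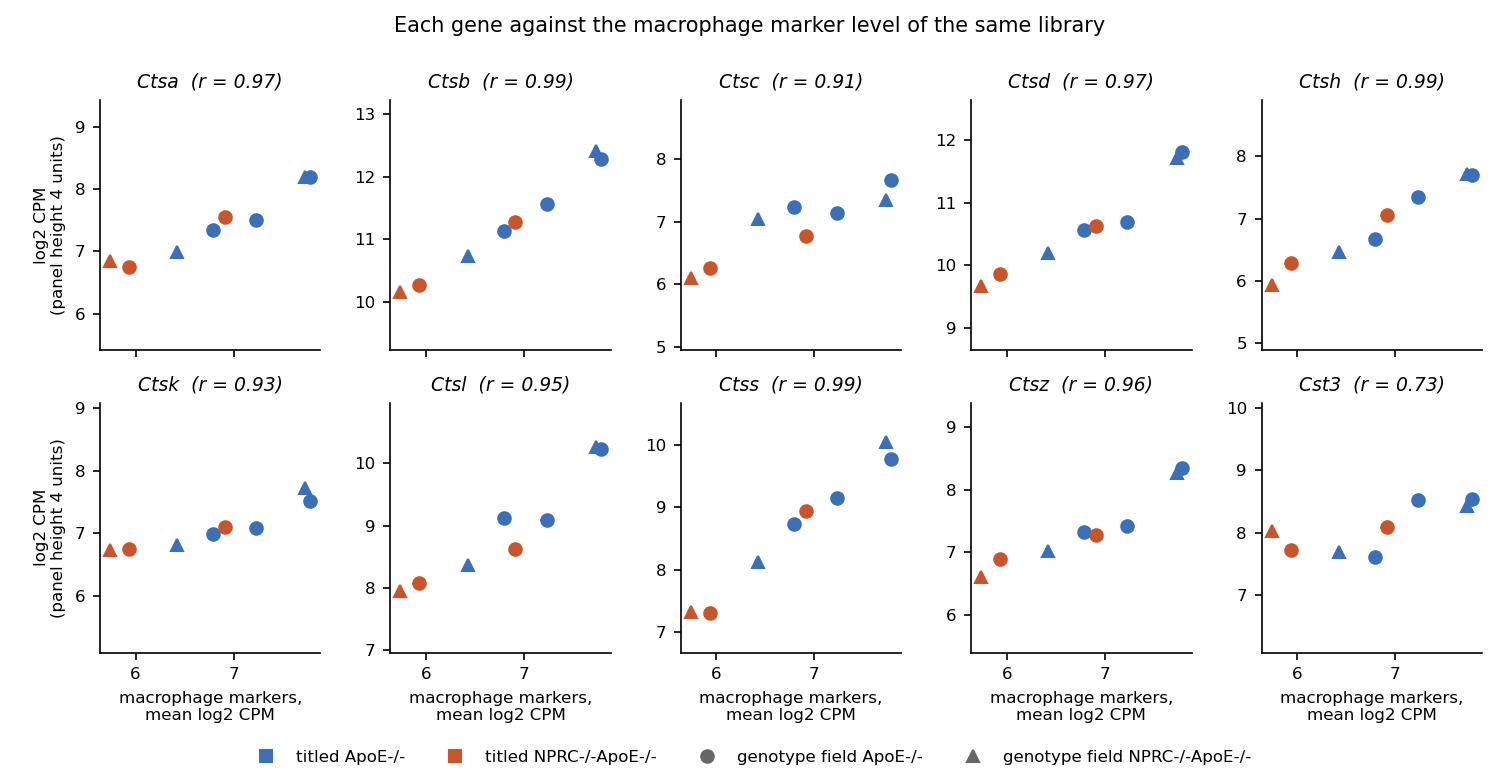
Log2 CPM of each gene (y axis, each panel spanning 4 units) against the mean log2 CPM of the 12 macrophage markers in the same library (x axis), with colours for the title, symbols for the genotype field and Pearson's r above each panel. The 9 cathepsins have r of 0.91 or more with slopes from 0.44 (Ctsk, on a row that also counts Arnt) to 1.34 (Ctss). Cst3 is more scattered (r = 0.73) with a slope of 0.37.

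The loci with the nearest pattern were sought among 4220 named loci with a mean of at least 5 FPKM, by Pearson's r of log2 CPM over the 8 libraries, as a description. For Ctsb the nearest were Lgmn (0.998), the asparaginyl endopeptidase that cuts cathepsin precursors, Atp13a2 (0.997), a lysosomal pump, and Creg1 (0.996). Ctsd and Ctsz were among the nearest to each other (0.995), and Naglu, an enzyme of glycan breakdown in the lysosome, was also near Ctsd (0.994). Ctsa was nearest to C77080 (0.997), Gusb (0.996) and Spp1 (0.996, on a row shared with Gm42793), and Ctsl to Cxcl12 (0.989), Npc1 (0.988) and Psap (0.987). The nearest to Ctss were Nckap1l (0.998), Cndp2 (0.997) and Cd300c2 (0.996), of which Nckap1l and Cd300c2 are expressed in blood-derived cells. Adgre1 (0.998) and C1qb (0.994), both macrophage markers, were nearest to Ctsh, before Rpl11 (0.993). Ctsk, on a row that also counts Arnt, had Clcn7 (0.991), Mgat5 (0.988) and the proton pump subunit Atp6v1a (0.988). Ctsc had Prkacb (0.989), Morc3 (0.985) and Evl (0.983). Cst3 was nearest to a row of Mir22hg, Tlcd2 and Mir22 (0.984), to Fbxl14 (0.980) and to Puf60 (0.979).

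Other genes of the lysosomal pathway were mostly lower by title as well. Of 27 other lysosomal hydrolases, 24 were lower by title, 10 with an unadjusted p under 0.05 and none in the higher direction (median log2 fold change -0.53). Over all tested loci these shares were 50.9% and 7.13%, here and for the lists that follow. The 3 with the smallest p were Asah1, acid ceramidase (-0.69, SE 0.17, adjusted p = 0.26, quasi-likelihood test of edgeR, on a row shared with Frg1), Galc, which breaks down galactosylceramide (-0.77, SE 0.27), and Lipa, lysosomal acid lipase (-0.76, SE 0.27). Among lysosomal membrane proteins and proton pump subunits 22 of 22 were lower, 7 with an unadjusted p under 0.05 (median -0.44). Laptm5, of leukocyte lysosomes, had -1.02 (SE 0.27, adjusted p = 0.26, same test), Atp6v0d2, a pump subunit of macrophages and osteoclasts, had -1.11 (SE 0.39) and the cholesterol exporter Npc1 had -0.57 (SE 0.22). By genotype field none of these hydrolases and membrane genes had an unadjusted p under 0.05, and the medians were -0.09 and -0.05.

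For maturation, sorting and partner genes, 12 of 14 were lower by title, 2 with an unadjusted p under 0.05 (median -0.28), a share near the 13.6% of all tested loci with such a p in either direction. These were Psap, the saposin precursor (-0.92, SE 0.32, adjusted p = 0.31, quasi-likelihood test of edgeR), and Lgmn (-1.05, SE 0.45, adjusted p = 0.35), followed by Grn, the progranulin gene, at -0.62 (SE 0.29). Of 5 other cathepsins 2 could be tested, Ctsf (0.20, SE 0.19) and Ctso (-0.34, SE 0.19), neither with an unadjusted p under 0.05. Ctsw, Ctse and Ctsg were under the filter. Among other cystatins only Cstb, the intracellular inhibitor (-0.65, SE 0.26, unadjusted p = 0.035, adjusted p = 0.33, quasi-likelihood test of edgeR), and Ahsg (-0.89, SE 0.45) could be tested of 11. Substrates of the cathepsins were lower in 10 of 11 cases, 2 with an unadjusted p under 0.05 (median -0.47), again beside 13.6% of tested loci in either direction. Cd74, the invariant chain that cathepsin S trims, had -1.87 (SE 0.40, adjusted p = 0.22, same test, on a row shared with Mir5107), the proteoglycan Dcn had -0.84 (SE 0.30) and Col1a1 had -1.02 (SE 0.49). Cd74 was at 256 to 542 CPM in the libraries titled ApoE-/- and at 67.3 to 180 CPM in the others. By genotype field no gene of these lists had an unadjusted p under 0.05 (1.31% of tested loci). The medians were then -0.05 for the maturation, sorting and partner genes and -0.003 for the substrates. By that field Cd74 had a log2 fold change of -0.59, Lgmn -0.02, Cstb 0.01 and Ahsg 0.38.

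Markers of other cells that a dissected aorta can hold were set beside these values, with 50.9% of tested loci lower and 7.13% lower with an unadjusted p under 0.05 as the background. Fibroblast markers were lower in 6 of 8 cases (2 with an unadjusted p under 0.05, median -0.44) and Schwann cell markers in 5 of 5 (3 with an unadjusted p under 0.05, median -0.69). T cell markers were lower in 3 of 3 that could be tested, 1 with an unadjusted p under 0.05, and the single B cell marker that could be tested was at -2.22. Endothelial (median -0.10), white fat (0.03), brown fat (0.34), skeletal muscle (1.05, 2 of 6 tested) and cardiomyocyte markers (2 of 6 tested, Myh6 at -2.09 and Actn2 at 0.65) had no member with an unadjusted p under 0.05, and 0 markers of any list had one by genotype field. The part of these cells in the values of the cathepsins was not tested.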

How the data were processed

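The authors trimmed reads with cutadapt 1.9, checked them with FastQC, aligned them to GRCm38 with HISAT2 and assembled transcripts with StringTie, and deposited per-library counts and FPKM values for each locus in 1 table. Strand use in counting was not stated in the sources used here. The deposited counts are raw, and the deposited FPKM values are scaled to library size and to a transcript length that the table does not give. No column lacked a sample.

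The members, gene lists and tests were chosen with earlier results of these data known. Counts were scaled by TMM and tested with edgeR 4.0.16 (R 4.3.3, quasi-likelihood, Benjamini-Hochberg over the 20506 loci that reached 1 FPKM in 3 libraries or more), 5 libraries against 3, by title and again by genotype field. CPM values are TMM-scaled, and log2 CPM used a prior count of 2. FPKM ratios of strictly positive values needed no pseudocount. Exact permutation tests were two-sided and run in Python with numpy 2.4.6 and scipy 1.17.1. Those of differences between groups went through all arrangements and took the smaller tail 2 times. The paired tests of levels counted the sign arrangements whose absolute mean difference was at least the observed one. Intervals are at the 95% level. Alternatives were DESeq2 1.42.0, limma 3.58.1, other scalings and filters, and leaving out each library. The edgeR, DESeq2 and limma fits were tested on simulated data with known changes. Named genes were the 10 members, Npr3, all macrophage markers, at most the 3 genes with the smallest p of each other list, and the 3 loci nearest to each member, of which some are not reported here. The methods of the study give 5 animals a group for RNA-seq and the design text 5 and 3, and 8 libraries were analysed here. By the design text each library is 1 mouse, so p-values rest on the spread between mice. No pair of libraries agreed within sampling noise, and library depth bounds counting error only. Samples with the same replicate number did not deviate together (correlations -0.27, -0.13 and -0.01), so the numbers were not used as pairs.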

Additional observations from a re-analysis of the deposited data

How the results depend on the processing

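Under the genotype field in place of the title, the count with an unadjusted p under 0.05 went from 6 to 0, the count past the criterion of the study from 4 to 0 and the count without overlap from 1 to 0, the median log2 fold change was -0.058, and 3 values changed sign (Ctsk 0.053, Ctsl 0.021 and the ratio of Ctsk to Cst3 0.052). The cause was not tested. The 4 libraries with 1 genotype in both labels, 3 against 1, left 9 genes without overlap, where fewer libraries make overlap rarer. The shares of all tested loci without overlap (7.41%) and past the criterion (3.47%) were taken only with all 8 libraries by title. Such counts from fewer libraries or other settings therefore have no background here. With a filter at a mean of 5 FPKM the criterion was met by 2. DESeq2 called 2 genes after adjustment (Ctsc and Ctsl, adjusted p = 0.0056 and 0.047) and voom with quality weights 1 (Ctsc), against 0 in edgeR. The replicate block, on 6 libraries that share numbers without known pairing, gave 2 with an unadjusted p under 0.05, where 1813 of 20506 tested loci had one. It gave 1 past the criterion, and the same 6 libraries without the block gave 3 without overlap. Leaving out 1 library gave 1 to 9 with an unadjusted p under 0.05 (2 without ApoE-/- 3 or 4, 1 without NPRC-/-ApoE-/- 2 or 3), 0 to 7 past the criterion (2 without ApoE-/- 2, 1 without ApoE-/- 3 or 4, 7 without NPRC-/-ApoE-/- 1, 0 without NPRC-/-ApoE-/- 2 or 3), 1 to 9 without overlap (3 without ApoE-/- 5, 9 without NPRC-/-ApoE-/- 1), and medians of -0.76 (without ApoE-/- 4) to 0.23 (without NPRC-/-ApoE-/- 3) by genotype field. The calls over all 20506 loci at an unadjusted p under 0.05 in these fits by title are given above. Per principal transcript, 5 of 9 neighbouring levels differed in place of 8. Relative to the macrophage markers the median by title was 0.17. Both were chosen after seeing the data. With 7 libraries the exact test of the Ctsl ratio cannot reach 0.05. Each of the 10 genes had at least 4869 counts in every library, so the spread between libraries and not counting error set the width of the intervals.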

Other observations

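3 of the genes had a second, minor locus under the same symbol that was left out of the values given above. Adding its counts to the main locus, as an alternative, left the median log2 fold change by title at -0.86. The number of genes with an unadjusted p under 0.05 in edgeR stayed at 6 and the number past the criterion at 4. A locus on the opposite strand of Ctsb (chromosome 14, 63141881 to 63143059) had 39 to 880 counts per library, with 880 in ApoE-/- 3 and 343 in ApoE-/- 2 against at most 91 in the others. One on the opposite strand of Ctss (chromosome 3, 95541505 to 95542603) had 79 to 291 counts. One on the strand of Cst3, past its annotated end (chromosome 2, 148868760 to 148871550), had 159 to 482 counts, and amounted over all libraries to 1.54% of the counts of the main Cst3 locus. It was highest in NPRC-/-ApoE-/- 2 and lowest in ApoE-/- 2. Whether reads were assigned by strand was not stated in the sources used here.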
